A study of Arabidopsis thaliana with 6 samples.

Results

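AT1G58602 (RPP7), AT3G07610 (IBM1) and AT3G05410 are 3 protein-coding genes of Arabidopsis thaliana known for carrying silent repeats or DNA methylation inside long introns. They were taken by name from a table of 37899 genes, of which 27444 are protein-coding, and every enriched domain within each gene and 2 kb on either side was collected. The measurements were made in young leaves of Columbia-0 (Col-0) plants grown in soil under short days. Chromatin immunoprecipitation (ChIP) with an antibody to monomethylated lysine 27 of histone H3 (H3K27me1) gave 2 samples, immunoprecipitation of methylated DNA (MeDIP) with an antibody to methylated cytosine (5mC) gave 2 samples, and 2 samples of MeDIP input without antibody accompanied them. The deposited values are 1 list of domains per mark, with 13068 H3K27me1 domains holding 12706852 reads and 12238 5mC domains holding 28021211 reads. The labels name no mutation and no treatment. A domain has a position and a number of reads and no value per sample, so no error between plants can be given and no test was made.

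Heterochromatin is the compact, silent form of chromatin that covers transposons, and in plants its cytosines are methylated and its histones carry dimethylated lysine 9 and monomethylated lysine 27 of histone H3. A transposon that lands in an intron can be silenced in place while the gene around it stays active. In Arabidopsis, transcription through such an intron to the distal end of the gene depends on the RNA-binding protein ASI1 (also called IBM2) and the PHD-finger protein EDM2. Without them, transcripts of the host genes tend to end early, inside or before the silent intron. RPP7 encodes an immune receptor of the nucleotide-binding, leucine-rich repeat class that acts against downy mildew. IBM1 encodes a JmjC-domain histone demethylase that removes lysine 9 methylation from active genes, and its own long intron is methylated. AT3G05410 encodes a chloroplast protein of the PsbP family, a family named after a subunit of photosystem II.

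Of the 25306 domains of both lists, 9 lay within the 3 genes or their flanks, 4 of H3K27me1 and 5 of 5mC. There were 7 wholly inside a gene and 2 beside one, of which 1 reached a little beyond the 2 kb, and none ran across a gene edge. RPP7 and AT3G05410 each held a kilobase-scale block enriched in both marks, set inside the gene and away from both ends. IBM1 held 1 narrow 5mC domain and no H3K27me1 domain. Domains of both marks were thus found within RPP7 and AT3G05410, and of 5mC alone within IBM1. The gene table gives no exons and no strand, so whether a domain lies in an intron was not determined here, and positions are given from the edge with the lower coordinate (low edge) and the edge with the higher coordinate (high edge).

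**Figure D1:**
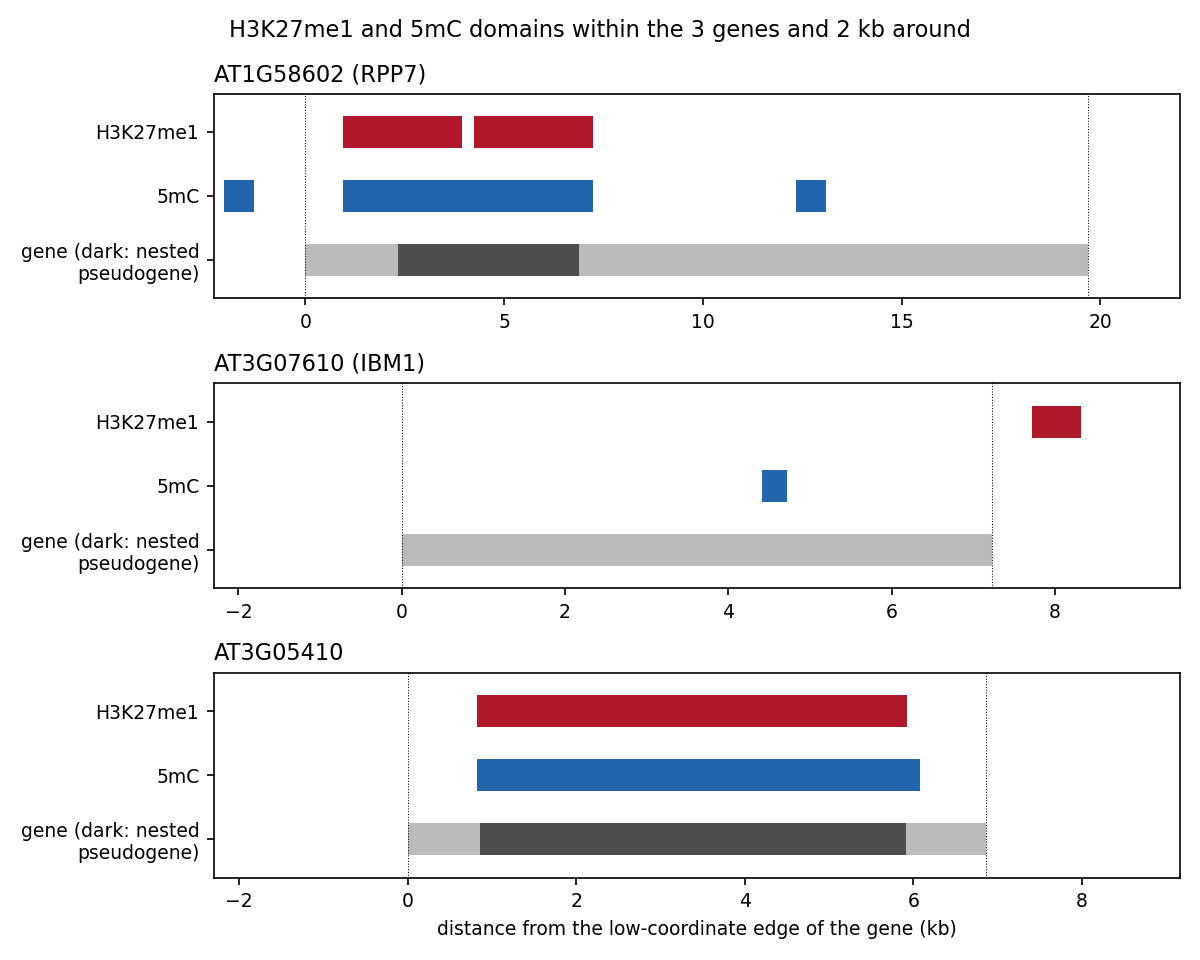
Domains of H3K27me1 (red) and 5mC (blue) drawn to scale along AT1G58602, AT3G07610 and AT3G05410, with the gene in grey and any annotated pseudogene inside it in dark grey; the x axis is the distance from the low edge in kb and dotted lines mark the gene edges. Both marks share 1 block in AT3G05410 and 1 block in AT1G58602 that H3K27me1 covers with 2 domains, while AT3G07610 has 1 5mC domain of 300 bp.

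AT3G05410 was the most completely covered of the 3. Its H3K27me1 domain lay on chromosome 3 from 1555501 to 1560600 (TAIR10), 5100 bp wide with 2142 reads. Its 5mC domain began at the same base and ran to 1560750, 5250 bp wide with 11782 reads. The marks therefore shared 5100 bp, all of the H3K27me1 sequence and 97.1% of the 5mC sequence in the gene.

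H3K27me1 covered 74.3% of the 6863 bp of AT3G05410 and 5mC covered 76.5%. Both ends of the gene were free of either mark, over 828 bp at the low edge and 785 bp at the high edge. Ranked by bases in both lists, AT3G05410 held rank 6 among 25017 protein-coding genes on the chromosome arms, the sequence outside the gene-poor pericentromeres. At least 50% of the gene length was in H3K27me1 domains in AT3G05410, 1 of the 3 genes, and in 6.14% of the arm genes. For 5mC this held in the same 1 of the 3 genes and in 1.85% of the arm genes, and for sequence in both lists in 312 arm genes (1.25%). Among the 497 arm genes at least as long as AT3G05410, the shortest of the 3, the shares were 0.805% for H3K27me1, 0.604% for 5mC and 0.604% for both. These shares are 4, 3 and 3 genes, and AT3G05410 itself is among them each time. The length limit leaves out AT1G11270, a gene of 6714 bp with 62.6% in both.

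The block of AT3G05410 matched an annotated pseudogene, AT3G05415, that lies wholly inside the gene. RefSeq counts many transposon remnants as pseudogenes. AT3G05415 is 5052 bp long, 73.6% of the length of its host, and 100% of it was in H3K27me1 and in 5mC domains. The H3K27me1 domain began 36 bp before the pseudogene and ended 12 bp after it, and the 5mC domain ended 162 bp after it. These distances are within the calling windows, 300 bp for H3K27me1 and 150 bp for 5mC, or close to 1 window.

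AT3G05410 stood alone for 5mC in its surroundings. Neither flank of 2 kb held a domain, and neither neighbouring gene, AT3G05400 at 453 bp on the low side and ACBP4 (an acyl-CoA-binding protein gene) at 135 bp on the high side, had a base in either list. The next 5mC domains lay 120972 bp away on the low side and 41065 bp away on the high side. In the 50 kb on each side, 5mC domains covered 1.35% of the sequence, against 4.40% of all arm bases, and H3K27me1 domains covered 7.50%, against 6.60% of all arm bases. The next H3K27me1 domains lay 6672 bp and 8665 bp away.

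RPP7 carried more covered bases than AT3G05410 over a much longer gene. Its H3K27me1 domains lay on chromosome 1 from 21747301 to 21750300 with 1374 reads and from 21750601 to 21753600 with 1249 reads, each 3000 bp wide and 300 bp apart. A single 5mC domain of 6300 bp with 11056 reads spanned both, from 21747301 to 21753600. The outer ends of the H3K27me1 pair and of the 5mC domain fell on the same bases, a match no finer than the calling windows. A further 5mC domain inside the gene lay from 21758701 to 21759450, 750 bp wide with 1325 reads, and had no H3K27me1 beside it.

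H3K27me1 covered 6000 bp of RPP7 and 5mC covered 7050 bp, or 30.5% and 35.8% of the 19695 bp of the gene. The 6000 bp in both lists were 100% of the H3K27me1 and 85.1% of the 5mC sequence in the gene. By bases in both lists, RPP7 held rank 2 among the 25017 arm genes. RPP7 is also long, at rank 6 in length, and a longer gene has room for more domains. The remaining 12645 bp were in neither list, in stretches of 947 bp at the low edge, 5100 bp between the block and the narrow 5mC domain, and 6598 bp at the high edge.

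The pseudogene AT1G58561, 4572 bp long, lies inside RPP7 and inside the 5mC block, where 100% of it was in 5mC and 93.4% in H3K27me1 domains. The gap of 300 bp between the H3K27me1 domains falls within it. Both marks began 1374 bp before the pseudogene and ended 354 bp after it, so the block of RPP7 was wider than the annotated element, unlike that of AT3G05410. The nearest annotated neighbours, the non-coding RNA gene AT1G58590 at 2462 bp on the low side and AT1G58643 at 798 bp on the high side, had no base in either list.

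The low flank of RPP7 held 1 of the densest 5mC domains of the list. It ran from 21744301 to 21745050, ended 1303 bp before the gene and had 3300 reads over 750 bp. At 4400 reads per kb it held rank 35 among the 12238 5mC domains. It touched no annotated gene and had no H3K27me1. Of its 750 bp, 697 lay within the 2 kb flank. The placing of reads with several matches is not stated in the labels, so the density of this domain is uncertain. The high flank of RPP7 was free of both marks, and the next domains there were 8852 bp away for H3K27me1 and 7202 bp away for 5mC. The wider surroundings were richer in domains than the arms as a whole. In the 50 kb on each side of RPP7, H3K27me1 domains covered 9% of the sequence, against 6.60% of all arm bases. For 5mC the share was 9.9%, against 4.40% of all arm bases. Of these 9900 bp of 5mC, 4950 bp came from 1 domain at the edge of the related resistance gene AT1G58848.

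IBM1 differed from RPP7 and AT3G05410 in having no H3K27me1 base and no annotated pseudogene inside it. Its 5mC domain lay on chromosome 3 from 2430301 to 2430600, 300 bp or 2 calling windows wide, with 226 reads. It covered 4.15% of the 7230 bp of the gene and lay 4417 bp from the low edge and 2513 bp from the high edge. Domains of this width made up 23.1% of the 5mC list, 2821 in number, and this one was less dense than most of the list at 753 reads per kb.

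5mC without H3K27me1, as in IBM1, was common in long genes. It was found in 162 of the 497 arm genes of at least the length of AT3G05410 (32.6%), and in 8.15% of all protein-coding arm genes. By covered 5mC bases IBM1 held rank 121 among those 497 genes. The high flank of IBM1 held an H3K27me1 domain of 600 bp with 201 reads, from 2433601 to 2434200, which began 487 bp beyond the gene and lay inside the neighbouring gene AT3G07620. It covered 33.4% of that neighbour. The low flank held no domain, and the low-side neighbour AT3G07600 had none. In the 50 kb on each side of IBM1, H3K27me1 domains covered 2.40% and 5mC domains 0.900% of the sequence.

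Set against all genes, any H3K27me1 was found in 2 of the 3 genes and in 21.0% of protein-coding arm genes. Any 5mC was found in 3 of the 3 genes and in 13.1%. Among the 497 long arm genes these shares were 27.2% and 48.9%, so that the presence of a 5mC domain in a gene of this length was frequent. Both marks on the same bases occurred in 2 of the 3 genes, in 4.14% of arm genes and in 8.25% of the long ones. With 3 genes chosen for what is known of them, and with earlier results of these data known, these counts are a description.

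The number of reads per kb is the read count of a domain over its width, and it was not compared between the lists. No input was subtracted here, and the input samples are of MeDIP alone. The placing of reads with several matches is not stated in the labels, so these densities are uncertain. The H3K27me1 domains of RPP7 had 458 and 416 reads per kb and that of AT3G05410 had 420, against a list median of 447 (quartiles 387 and 569). Wider H3K27me1 domains were denser in general, and beside domains of their own width these 3 were sparse. The values of RPP7 exceeded 15.9% and 8.61% of the 151 H3K27me1 domains of 3000 bp, whose median was 603 reads per kb. On the arms there were 23 domains of this width with a median of 520, and RPP7 exceeded 21.7% and 8.70% of them. The value of AT3G05410 exceeded 2.86% of the 70 domains of 5100 bp, whose median was 681. It was the lowest of the 13 such domains on the arms.

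The 5mC domains at the same places lay above the median of their list. The block of AT3G05410 had 2244 reads per kb and that of RPP7 had 1755, against a list median of 1073 (quartiles 800.4 and 1470). AT3G05410 exceeded 90.3% of the 31 5mC domains of 5250 bp and held rank 1 of the 4 on the arms. RPP7 exceeded 55.9% of the 34 domains of 6300 bp and held rank 6 of the 7 on the arms. The narrow internal 5mC domain of RPP7 had 1767 reads per kb and exceeded 87.4% of the 785 domains of 750 bp, while that of IBM1 exceeded 29.9% of the 2821 of its width.

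The call of H3K27me1 in AT3G05410 depended on the less dense part of the list. When the domains at or above the median reads per kb of each list were kept, AT3G05410 kept its 5mC and had 0% in H3K27me1 domains, RPP7 had 15.2% in H3K27me1 domains, and IBM1 had 0% in 5mC domains.

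**Figure D2:**
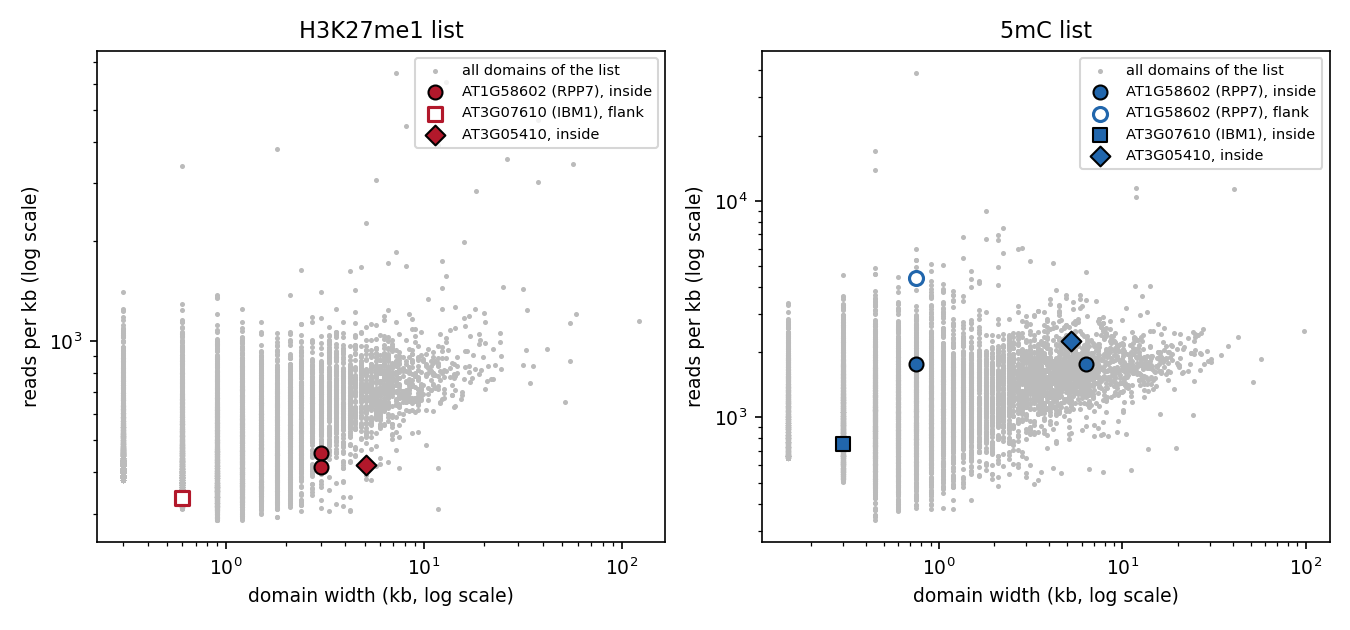
Reads per kb against width in kb, both on log axes, for every domain of the H3K27me1 list (left) and of the 5mC list (right) in grey, with domains inside (filled) and beside (open) the 3 genes marked. The H3K27me1 domains of RPP7 and AT3G05410 lie low among domains of their width, and the 5mC domain in the low flank of RPP7 lies near the top of its list at 4400 reads per kb.

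Blocks of both marks enclosed within a gene were rare. An internal island was defined as a run of at least 1000 bp in both lists, wholly inside a gene and at least 500 bp from each edge. Such islands were found in 2 of the 3 genes, in 17 of 25017 protein-coding arm genes (0.0680%) and in 4 of the 497 long ones (0.805%). Of the 13478 arm genes with room for one, the 17 were 0.126%. The count depends on the definition: it was 100 for islands of at least 500 bp, 6 for at least 2000 bp, and 8 either at 1000 bp from each edge or with domains at or above the median reads per kb. Under each of the last 2 settings AT3G05410 had no island, and 1 of the 3 genes, RPP7, kept one. AT3G05410 had the longest island, 5100 bp, together with AT4G22410. RPP7 held rank 5 with 3000 bp, which counts its block as 2 islands. With domains closer than 600 bp joined in each list, an alternative chosen after seeing the data, the island of RPP7 was 6300 bp.

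The genes most like AT3G05410 and RPP7 by length of the island also enclosed pseudogenes. AT4G22410 had an island of 5100 bp, of which 95.3% lay in the nested pseudogene AT4G22415. AT1G11270, an F-box protein gene also reported as a target of ASI1 and EDM2, had 4050 bp, of which 99.2% lay in the pseudogene AT1G11265. AT2G34100 had 3750 bp, of which 76.7% lay in the pseudogene AT2G34130. For AT3G05410 and RPP7 the shares were 99.1% and 54.2%. These 5 genes had the 5 longest islands and were the 5 of the 17 with a pseudogene inside.

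The other 12 genes had islands of 1050 to 2100 bp and no nested pseudogene. The longest of them were 2100 bp in AT2G24340 and 1800 bp in AT5G17165, followed by 1500 bp in AT1G27570, AT3G61030 and AT5G39840 and 1350 bp in AT1G25360. AT1G16480, AT2G22070, AT2G37370, DMT2 (AT4G14140, a DNA methyltransferase gene) and QWRF8 had 1200 bp each, and the shortest island, 1050 bp, was that of AT3G24255.

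In AT1G11270, H3K27me1 covered 76.0% and 5mC 67.0% of the 6714 bp of the gene, with 62.6% in both. Its main H3K27me1 domain, on chromosome 1 from 3781201 to 3785400, had 572 reads per kb, and its main 5mC domain, from 3781051 to 3785250, had 1300 reads per kb. Relative to domains of equal width, the 5mC of AT1G11270 exceeded 25.6% of the list, against 90.3% for AT3G05410, and its H3K27me1 exceeded 26.6%, against 2.86%. The H3K27me1 domain of AT4G22410 was denser than these, with 937 reads per kb, and exceeded 92.9% of those of its width. The 5mC domain of AT4G22410 ran over an edge of that gene, while both marks of the other islands among the 5 longest lay inside their genes.

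**Figure D3:**
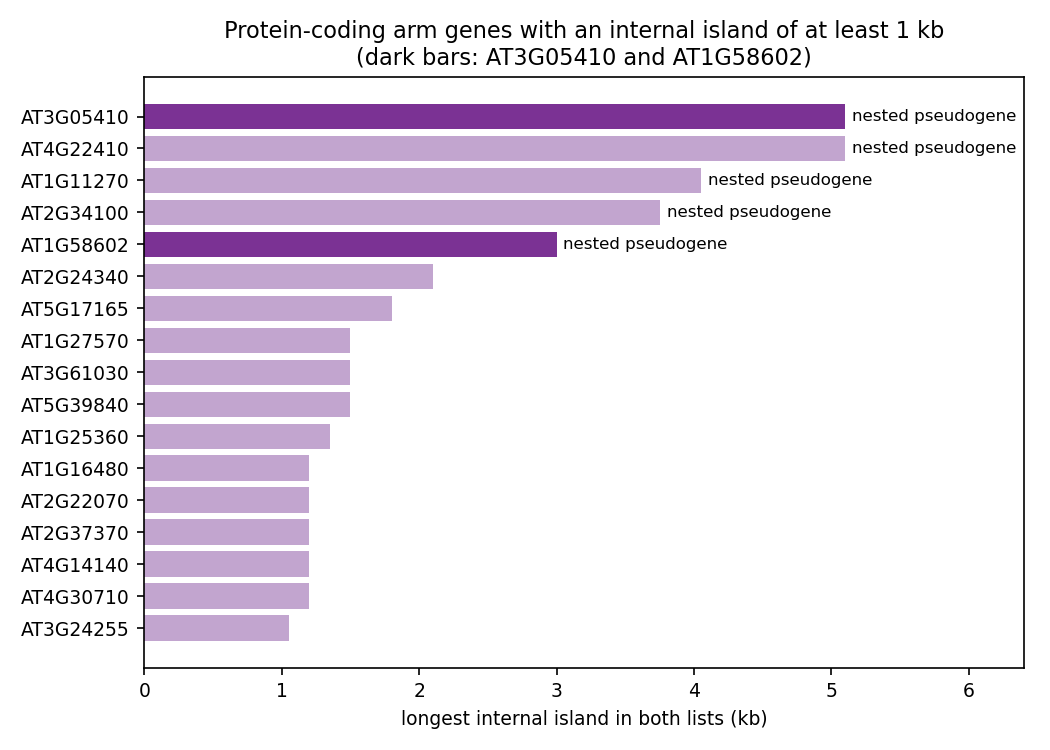
Length in kb of the longest internal island in both lists for the 17 protein-coding arm genes with one of at least 1 kb; dark bars are AT3G05410 (5.1 kb) and AT1G58602 (3 kb), and labels mark genes that enclose an annotated pseudogene. The 5 longest islands are those of the genes with a nested pseudogene.

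Annotated pseudogenes nested in protein-coding arm genes numbered 26, in 25 host genes, and most were short. AT3G05415 and AT1G58561 were at ranks 2 and 4 in length among them. At least 50% of the length was in both lists for 6 of the 26 (23.1%), against 463 of the 1226 other arm pseudogenes (37.8%). Among those of at least 1000 bp the counts were 6 of 10 (60.0%) and 331 of 669 (49.5%). The 6 were AT3G05415, AT1G58561, AT1G11265, AT2G34130, AT4G22415 and AT4G11375. The host of the last, AT4G11373, had no internal island by the definition above, and its pseudogene ends 447 bp before the high edge, closer than 500 bp.

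Among factors that act on such introns, 1 of 6 was touched by H3K27me1, against 21.0% of protein-coding arm genes, and 2 by 5mC, against 13.1%. With so few genes these counts do not set the list apart, and none of the 6 had a base in both, against 4.14% of arm genes. EDM2 had 600 bp of H3K27me1, 164 bp from its low edge, and 5mC domains of 150 and 300 bp elsewhere in the gene, or 8.74% and 6.55% of its length. AT3G02890, which encodes the PHD-finger protein AIPP2, had 10.9% in 5mC. ASI1 (AT5G11470), AIPP1 (AT1G05970, also called EDM3), AIPP3 (AT4G11560) and CPL2, a phosphatase of the polymerase II tail, had neither mark.

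Of 9 genes for enzymes of the marks, 3 were touched by H3K27me1 (21.0% of arm genes) and 2 by 5mC (13.1% of arm genes). These counts are also too small to set the list apart. SUVH5, a histone H3 lysine 9 methyltransferase, had 35.1% in H3K27me1 and 4.39% in 5mC domains, and its paralog SUVH6 had 3.41% in 5mC alone. MET1, which maintains CG methylation, and ATXR6, which monomethylates lysine 27, had 9.44% and 14.6% in H3K27me1 alone. SUVH4, CMT2, CMT3, CHR1 (the remodeller DDM1) and ATXR5 had neither. No regulator or enzyme gene reached 50% in either mark, which 6.14% of arm genes did for H3K27me1 and 1.85% for 5mC.

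Relatives of the 3 genes were taken from the same families. Of 9 resistance genes related to RPP7, 1 was touched by H3K27me1, against 21.0% of arm genes, and 3 by 5mC, against 13.1%. Among the 497 long arm genes 5mC touched 48.9%. These 9 genes were 3454 to 6413 bp long, shorter than every gene of the long class. With so few genes these counts do not set the list apart. AT1G58390 had 31.5% in H3K27me1 domains and 19.7% in 5mC domains, with 600 bp shared. AT1G58848 had 7.46% and AT1G59218 had 4.30% in 5mC alone, each from a 5mC domain of 4950 bp that overlapped 1 gene edge and lay mostly outside the gene. The domain at AT1G58848 had 2680 reads per kb and that at AT1G59218 had 2675. Resistance genes of this cluster include close copies. The placing of reads with several matches is not stated in the labels, so the values of such copies are uncertain.

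Of 5 genes of the IBM1 family of JmjC proteins, none was touched by H3K27me1, against 21.0% of arm genes. By 5mC 3 were touched, against 13.1% of arm genes and 48.9% of the long ones. These 5 genes were 4476 to 6385 bp long, shorter than every gene of the long class. AT1G62310 had 21.1% in 5mC domains, AT1G09060 had 6.30% and AT1G11950 had 3.27%. AT4G00990 and B160 (AT4G21430) had no base in either list. Of 9 genes of the PsbP family, among them PSBP-1, PPD1 and PPL1, none had a base in either list. Most arm genes have none, since 21.0% were touched by H3K27me1 and 13.1% by 5mC. These genes were 1036 to 2256 bp long, shorter than the 6863 bp of AT3G05410, and the share of arm genes touched by a domain was higher among long genes for both marks. Whether gene length plays a part in the PsbP family was not tested.

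**Figure D4:**
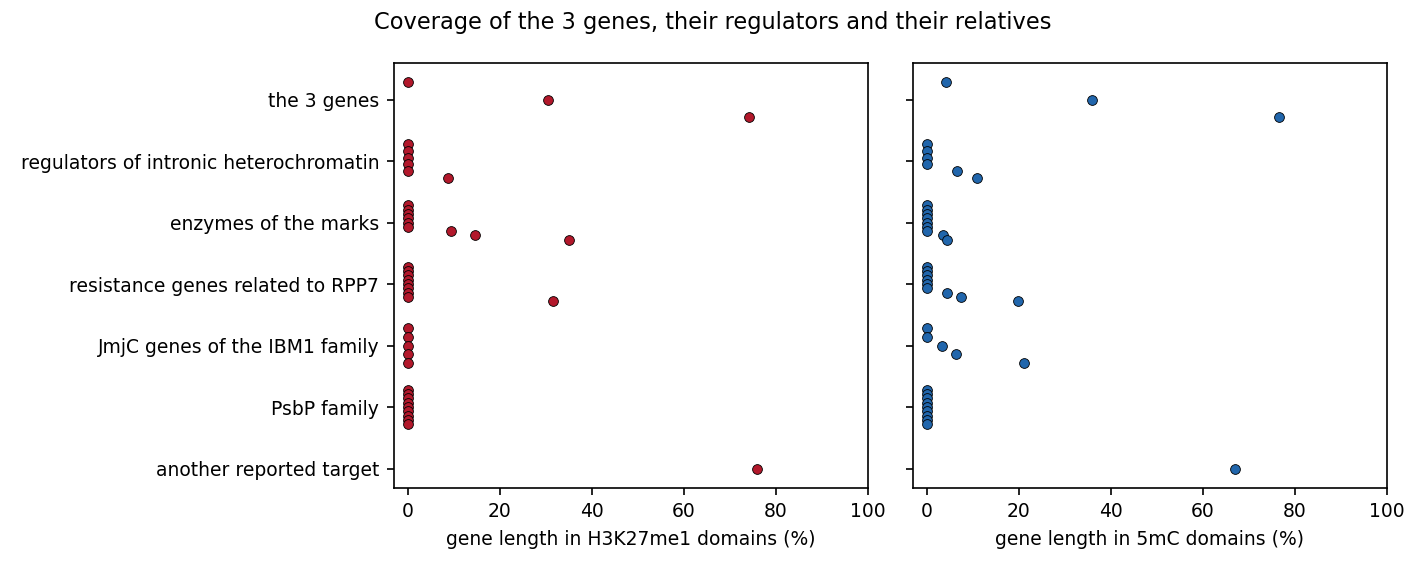
Percent of gene length in H3K27me1 domains (left) and in 5mC domains (right), 1 point per gene, for the 3 genes, their regulators, the enzymes of the marks, their relatives and AT1G11270 (another reported target). AT3G05410 (74.3% and 76.5%) and AT1G11270 (76.0% and 67.0%) lie far to the right for both marks, and the 9 PsbP family genes lie at 0 for both.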

How the data were processed

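H3K27me1 ChIP (2 samples), 5mC MeDIP (2) and MeDIP input (2) were grouped by the labels. Bowtie, SICER and the build TAIR10 are named, per the submitters' processing notes, while pooling of replicates, use of input and multiply matching reads are not described there. Each deposited domain has the authors' whole-number read count, not normalized and used within 1 list. The start column is 0-based and the end column was read as the last base, since widths are then whole windows of 300 bp (H3K27me1) or 150 bp (5mC). Printed positions are 1-based. The count sums are not library depths, which are not used here.

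Genes came from the RefSeq table of TAIR10.1, whose coordinates are not printed. Pseudogenes and domains overlapped best within 100 bp of offset 0 in 21 of 21 segments of 5 Mb for H3K27me1 and in 20 of 21 for 5mC. Coverage was counted in bases with Python 3.11.15 and numpy 2.4.6. Interval code was checked on simulated data. Pericentromeres were runs of 100 kb windows, averaged over 11, with protein-coding coverage under 0.7 of the chromosome's median. Named genes were the 3 genes, their neighbours, 6 gene lists and the 10 other arm genes with the longest internal islands, with ties; AT3G24255, the last of the 17 genes with an island, AT4G11373 and nested pseudogenes were named after their values were seen. Members and lists were chosen with earlier results of these data known. Alternatives were width, density, joining, flank and island limits.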

Additional observations from a re-analysis of the deposited data

How the results depend on the processing

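Of 66 alternative values for 39 results, 36 stayed within set limits and 30 moved past them. The limits were the 95% exact binomial interval for shares and percentiles, 1.5 times for counts and 1 calling window for distances. That interval took each base of a gene, or each domain of a list, as independent. It measures no spread between samples, so the counts of 36 and 30 describe these limits alone. With the domains at or above the median reads per kb of each list, H3K27me1 and both marks covered 15.2% of AT1G58602 and 0% of AT3G05410, 5mC covered 0% of AT3G07610, and 8 genes had an internal island. With domains of at least 1000 bp, 5mC covered 32.0% of AT1G58602 and 0% of AT3G07610. Joining domains closer than 600 bp gave 32.0% of AT1G58602 for H3K27me1 and for both marks. Flanks of AT1G58602 held 0 domains within 1 kb and 2 within 5 kb. Islands were found in 100 genes at 500 bp or more, in 6 at 2000 bp or more, and in 8 at 1000 bp or more from each edge, a distance that AT3G05410 does not reach; the count was 24 at 300 bp from each edge, 25 over all protein-coding genes and 22 with domains joined, an alternative added after seeing the data, against 17. With at least 50% of the gene covered, the counts of touched genes became 0 for the regulators, the enzymes and the relatives of RPP7 (both marks) and for the JmjC family (5mC). Against domains of equal width, percentiles of reads per kb were 15.9, 8.61, 99.2 and 55.9 for the H3K27me1 pair, the flanking and the wide 5mC domain of AT1G58602, 12.0 and 29.9 for the H3K27me1 and 5mC domains at AT3G07610, and 2.86 and 90.3 for those of AT3G05410. The cause of these changes was not tested beyond what each setting removes. No paired analysis was possible because the deposited domains carry no values of single replicates, and for the same reason no replicate could be left out. Methylation too sparse to be called, outside the domains, cannot be told from its absence.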

Other observations

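Some nested pseudogenes, chosen after their values were seen, carried 1 mark alone, both marks on separate bases, or neither. H3K27me1 domains covered 58.5% of AT1G50810, 4105 bp long inside AT1G50820, and 5mC domains 0%. AT3G09915, 1172 bp long inside AT3G09920, was covered to 100% by H3K27me1 and to 0% by 5mC. AT1G65347, 794 bp long inside the ubiquitin gene AT1G65350 (UBQ13), was covered to 0% by H3K27me1 and to 100% by 5mC. The longest nested pseudogene, AT3G60965 with 9903 bp inside AT3G60961, was covered to 18.2% by H3K27me1 and to 3.03% by 5mC, with no base in both. AT5G01715, 2170 bp long inside AT5G01720, had neither.

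The 5mC domains at the edges of AT1G58848 and AT1G59218 had the same width, 4950 bp, with 13268 and 13239 reads. They lay on chromosome 1 from 21796651 to 21801600 and from 21832801 to 21837750. The resistance genes AT1G58807 and AT1G59124 of the same cluster were both 4506 bp long in the gene table, and neither had a base in either list.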
